A study of Homo sapiens with 2 samples.

Results

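The 9 SOX genes examined here, *SOX10*, *SOX9*, *SOX8*, *SOX5*, *SOX6*, *SOX13*, *SOX4*, *SOX11* and *SOX2*, were followed through the CHD4 peaks that lie on them or near them in an established human melanoma cell line. A CHD4 peak was counted for a gene when it overlapped the gene record of GENCODE release 44 mapped to GRCh37, or the 50000 bp on either side. Where more than 1 listed gene was in reach, the nearest took the peak. This rule found 134 of the 60126 peaks of the list, or 0.223%, in windows that add up to 2.805 Mb.

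CHD4 is the ATPase of NuRD, a complex that moves nucleosomes and removes acetyl groups from histones. Its occupancy was measured by ChIP-seq in the 501Mel line, without any treatment named in the labels, with 1 library of CHD4 ChIP and 1 of input chromatin. Fixation used 0.4% paraformaldehyde. Neither library has a replicate and the data come from 1 line, so no spread between samples can be given and nothing was tested between conditions. Read counts are not part of the peak list, and the depth cannot be known from it. It measures no expression either, so the label of the cell line could not be checked against marker genes. For each peak the authors' peak caller gave a fold enrichment, the ratio of the ChIP over the local background, and a −log10 q, which grows as the q of the peak gets smaller. Whole-list values below are over the 60123 peaks outside the mitochondrial genome. Positions are those of hg19, counted from 1.

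SOX proteins are transcription factors that share the HMG box, a DNA-binding domain that recognises short AT-rich words and bends the DNA. They are sorted into groups by the likeness of this domain. The SOXE proteins SOX8, SOX9 and SOX10 act in the neural crest, the embryonic cell population that gives rise to melanocytes, and SOX10 maintains the melanocyte lineage and activates *MITF*. The SOXD proteins SOX5, SOX6 and SOX13 carry no known activation domain of their own and form dimers. The SOXC proteins SOX4 and SOX11 act in progenitor cells, and SOX2, of the SOXB1 group, is known for its part in stem cells.

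The peaks were spread very unevenly over the family. *SOX6* had 68 peaks, *SOX5* 24, *SOX10* 19, *SOX4* 9, *SOX13* 8, *SOX8* 5 and *SOX2* 1, while *SOX9* and *SOX11* had none. Thus 7 of 9 genes had a peak in reach, beside 82.8% of the 20098 protein-coding genes of chromosomes 1 to 22 and X, a share that these 9 genes do not set themselves apart from. Among the 6 members of at most 20000 bp, 4 had one, beside 78% of the protein-coding genes of that size. A peak with a −log10 q of at least 2 was in reach of 6 of the 9, beside 73.4% of protein-coding genes, and one of at least 5 in reach of 2, beside 13.7%. The SOXD group held 100 of the 134 peaks, the SOXE group 24, the SOXC group 9 and the SOXB1 gene 1.

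Window sizes differed, from 102.5 kb for *SOX2* to 1133 kb for *SOX5*, so the genes were compared by peaks per Mb of window. *SOX10* led with 162.8 peaks per Mb (exact Poisson 95% interval 97.99 to 254.2). *SOX4* followed with 85.8 (39.24 to 162.9), *SOX6* with 77.9 (60.48 to 98.73), *SOX13* with 51.7 (22.34 to 101.9) and *SOX8* with 47.5 (15.43 to 110.9). *SOX5* had 21.2 (13.57 to 31.52) and *SOX2* 9.76 (0.247 to 54.35). For the windows without a peak the upper limits were 35.0 per Mb at *SOX9* and 33.8 at *SOX11*. These intervals cover counting error only, and neighbours in the order had overlapping intervals. The median protein-coding gene had 27.1 peaks per Mb of its window, and the middle 50% lay between 8.48 and 55.1.

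**Figure D1:**
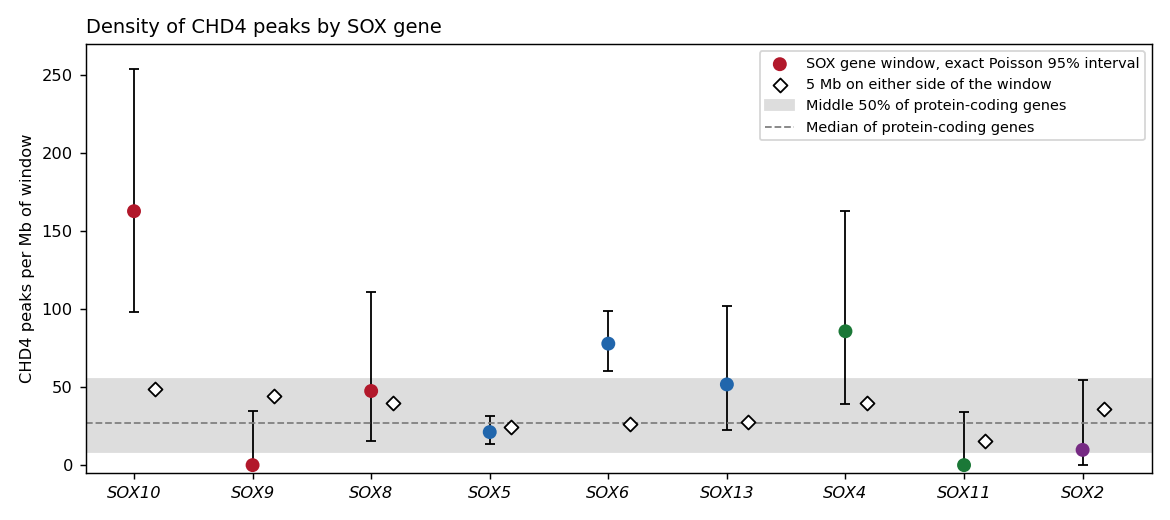
CHD4 peaks per Mb of window for the 9 SOX genes (filled circles, coloured by group, with exact Poisson 95% intervals), the density in the 5 Mb on either side of each window (open diamonds), and the median (dashed line) and middle 50% (grey band) of 20098 protein-coding genes. At *SOX8* the chromosome end cuts short the 5 Mb before the window. *SOX10* stands at 162.8 peaks per Mb, while *SOX9* and *SOX11* are at 0 in surroundings of 44.1 and 15.2.

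The surroundings of the genes gave a second measure. In the 5 Mb on either side of the *SOX10* window the list had 48.8 peaks per Mb, so that the window held 3.34 times the density around it. The ratio was 2.93 at *SOX6*, 2.14 at *SOX4*, 1.85 at *SOX13*, 1.203 at *SOX8*, 0.858 at *SOX5* and 0.270 at *SOX2*. At *SOX8* the chromosome end falls within the 5 Mb before the window, so its surroundings lie mostly after it. The surroundings of *SOX9* had 44.1 peaks per Mb and those of *SOX11* 15.2. The level of the background itself was implied by the fold enrichment and p of each peak, and so was known only under peaks. Ground without a peak was not compared. Under the SOX peaks this level differed little from that under the surrounding peaks. Its median was 3.6 under the *SOX10* peaks and 3.61 under the surrounding peaks, a ratio of 0.997. Both values lie above the median of the list, 2.878, and above its 75th percentile, 3.351. Over the genes with a peak the ratio ranged from 0.872 at *SOX2*, from 1 peak, to 1.05 at *SOX8*. The lowest level was 2.48 under the SOX peaks and 2.47 over the list. Such a shared floor limits how far the ratios can vary. Whether this background is the input chromatin is not given in the sources used here.

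*SOX10* (ENSG00000100146) lies on chromosome 22 from 38366693 to 38383429, on the minus strand, and its canonical transcript starts at 38380562 and has 4 exons. Peaks covered 29.05% of its 116.7-kb window and 57.2% of the gene record. Of the 20098 protein-coding genes, 99.25% had a lower density and 99.94% a lower cover. At least 3000 bp long were 5 of its 19 peaks, of 3110, 3571, 6259, 6861 and 10618 bp, beside 4.23% of the list. In all the SOX windows 12 of 134 peaks reached that length, or 8.96% (Wilson 95% interval 5.197% to 15.0%, for counting error only), with 4 at *SOX6* and 1 each at *SOX5*, *SOX13* and *SOX4*.

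The strongest *SOX10* peak, enriched 4.26-fold with a −log10 q of 6.00, spans chr22:38411258-38417516. It begins 30696 bp before the canonical start, inside *POLR2F*, a gene for a subunit of RNA polymerase II. Of the list, 97.2% of peaks have a lower fold enrichment and 99.5% are shorter. The longest, of 10618 bp, spans chr22:38427571-38438188, enriched 3.79-fold with a −log10 q of 4.21. It begins 47009 bp before the canonical start, lies at starts (within 1000 bp) of *POLR2F* transcripts and of ENSG00000222044, and part of it runs past the edge of the window. Downstream of the gene, chr22:38329761-38330514 in *MICALL1* is enriched 3.93-fold, with a −log10 q of 4.44.

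Beside the canonical start of *SOX10* the peak at chr22:38380667-38383776 begins 105 bp before the transcript and runs away from it over 3110 bp, enriched 3.74-fold, with a −log10 q of 3.65. A start of a *POLR2F* transcript lies there too. A pair of further peaks lies within 1000 bp of an annotated *SOX10* start. The first, chr22:38371776-38373123, lies wholly in intron 3 and is enriched 2.98-fold. The other, chr22:38373786-38374463, covers all 269 bp of exon 3 with 321 bp of intron 2 and 88 bp of intron 3, and has a fold enrichment of 3.32. The 3′ end of the gene lies under the peak chr22:38363803-38370663, with a fold enrichment of 3.25, which covers 1887 bp of exon 4, 458 bp of intron 3 and 4516 bp beyond the transcript. Exons 1 and 2 of the canonical transcript have no peak, and 69.4% of the coding sequence is covered.

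Of the peaks not yet described, chr22:38420608-38424178, of 3571 bp, is enriched 3.27-fold, with a −log10 q of 3.13, and the lowest fold enrichment of the window is 2.39. Of all 19, 12 lie before the canonical start and 7 in the transcript or after it, with median fold enrichments of 3.01 on either side. *POLR2F* runs across *SOX10* on the opposite strand, from 38348614 to 38437922, and 17 of the 19 peaks overlap it, so a peak list cannot assign them to either gene. A start of another gene lies within 1000 bp of 5 of the 19, and leaving those out gives 14 peaks.

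**Figure D2:**
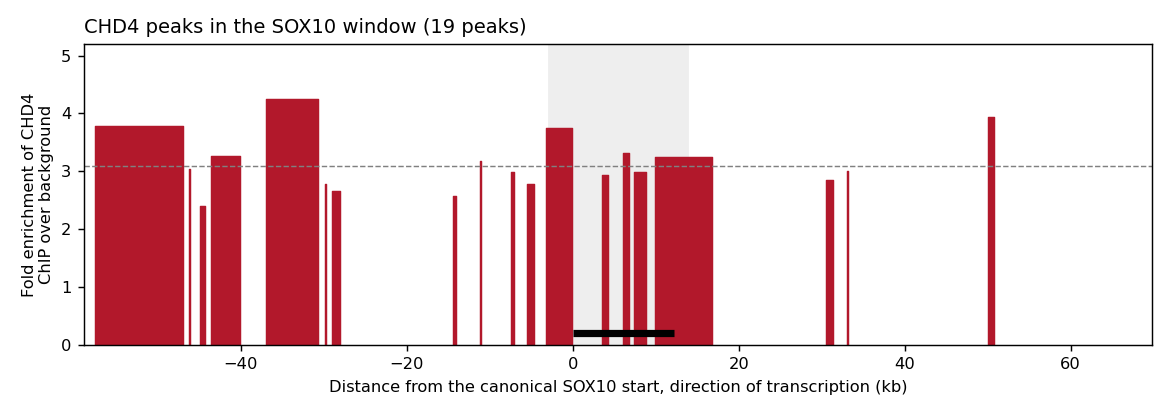
Position of the 19 CHD4 peaks of the *SOX10* window by distance from the canonical start (kb, negative values before the start), with bar width giving peak length and bar height the fold enrichment over background. The grey field is the gene record, the black bar the canonical transcript and the dashed line the median fold enrichment of the whole list, 3.09. The 3 longest peaks cover 10618, 6861 and 6259 bp, and the tallest, at 4.26, begins 30696 bp before the start.

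Words recognised by SOX proteins and by MITF were searched in these sequences, because SOX10 and MITF are the lineage factors of melanocytes. The SOX words were AACAATG and AACAAAG and the E-box was CACGTG, the core word of MITF and related factors, on both strands. The strongest *SOX10* peak holds 1 SOX word and 4 E-boxes over its 6259 bp. The reference sequence (GRCh37, plus strand, read 5′ to 3′) around each is shown with the word in capitals. It is a description of the sequence and not of binding. A SOX word lies anywhere in 31.6% of the peaks of the list, of all lengths, and the share at this length was not computed.

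SOX word, chr22:38412581-38412627: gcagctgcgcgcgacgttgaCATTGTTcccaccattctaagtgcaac
E-box, chr22:38413084-38413129: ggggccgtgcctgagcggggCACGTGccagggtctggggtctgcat
E-box, chr22:38415095-38415140: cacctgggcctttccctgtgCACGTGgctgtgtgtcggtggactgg
E-box, chr22:38415659-38415704: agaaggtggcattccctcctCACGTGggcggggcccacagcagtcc
E-box, chr22:38417067-38417112: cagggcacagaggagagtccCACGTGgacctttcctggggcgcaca

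The number of E-boxes was looked up after the peak had been seen. Of the 616 peaks of the list whose length is within 25% of this one, 11 hold at least 4 E-boxes, or 1.79% (Wilson 95% interval 1% to 3.17%), and 49.7% hold at least 1. The share of G and C in the strongest *SOX10* peak is 55.1%, above the 75th percentile of the whole list, 50.04%. Among the 57 of the 616 peaks within 5 percentage points of 55.1%, 4 hold as many E-boxes, or 7.02%, a count that includes the peak itself.

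A SOX word also lies within 250 bp of the centre of 5 of the 19 *SOX10* peaks. A pair of these words is shown, from intron 3 of *SOX10* and from the longest peak, each under its peak and outside annotated exons.

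SOX word in intron 3, chr22:38372346-38372392: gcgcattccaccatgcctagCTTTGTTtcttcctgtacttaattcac
SOX word in the longest peak, chr22:38433012-38433058: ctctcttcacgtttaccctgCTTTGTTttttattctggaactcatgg

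The other SOXE genes differed from *SOX10* in these values. *SOX9* (ENSG00000125398, chromosome 17, 70117161 to 70122557) had no peak in its window, and the nearest lay 90.1 kb before the gene, with a fold enrichment of 3.48, and 339.4 kb after it, with 2.73. The stretch without a peak was 435 kb long. *SOX8* (ENSG00000005513, chromosome 16, 1031770 to 1036979) had no peak on the gene itself. The strongest of its 5 peaks, chr16:1021449-1023020, is enriched 4.14-fold, with a −log10 q of 4.22, and lies 8750 bp before the start, at a transcript start of *LMF1*, a lipase maturation gene. The next, chr16:1018347-1019455, with 3.88, lies in the same gene. After *SOX8*, chr16:1041757-1042078 (2.94), chr16:1043586-1043751 (2.57) and chr16:1049274-1049918 (2.72) lie in the long non-coding RNA ENSG00000260496.

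Of the SOXD genes, *SOX6* (ENSG00000110693) lies on chromosome 11 from 15987995 to 16761138, on the minus strand. It is 773144 bp long, and 66 of its 68 peaks lie inside the gene record. The canonical transcript, which starts at 16378092, had 110.2 peaks per Mb, and the 383 kb of the record before it had 62.7. The introns of the canonical transcript differed. Intron 6, of 71.96 kb, held 13 peaks, intron 4, of 47.63 kb, held 7, intron 3, of 83.8 kb, held 5 and intron 1, of 14.8 kb, none. Peaks lay in runs, the largest with 17 peaks in 79.8 kb, from 16102106 to 16181927, where consecutive gaps were at most 20000 bp. The longest stretch of the gene without a peak was 123.2 kb, from 16441856 to 16565064.

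By fold enrichment, the highest peak of the *SOX6* window and of all the SOX windows has 4.78, with a −log10 q of 5.77, below the 6.00 of the strongest *SOX10* peak. It lies 49025 bp outside the gene, at chr11:16810163-16810317 in *PLEKHA7*, which encodes a protein of cell junctions. It is 155 bp long. A match to the core word of the insulator protein CTCF, from 16810105 to 16810116, lies beside the peak rather than under it, in an annotated exon. It is the only such match within 250 bp of a centre among the 134 peaks, beside 0.68% of the list. The match is shown in capitals.

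CTCF word, chr11:16810096-16810125: caggaagcgCCACCAGGGGGCagcacaggc

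Within the gene, the strongest peak is chr11:16033502-16036782, enriched 4.19-fold with a −log10 q of 4.82. It is 3281 bp long, covers 109 bp of exon 13 and lies at another *SOX6* start. The next, chr11:16423364-16428278, of 4915 bp and with a fold enrichment of 3.99, lies at a further one. The canonical start itself lies under chr11:16377666-16379292, which covers 427 bp of exon 1 and is enriched 3.58-fold (−log10 q 2.73). In all, 8 *SOX6* peaks lie within 1000 bp of one of the 17 starts of the gene. The others are chr11:16133220-16134332 (3.22), which covers 121 bp of exon 7, chr11:16273770-16274357 (3.01), chr11:16418258-16420087 (2.95), chr11:16429028-16430572 (3.14) and chr11:16758680-16759941 (3.05), which also lies at a *C11orf58* start. The fold enrichments of these 8 range from 2.95 to 4.19, and the median over the 68 peaks is 3.03. Exon 16, which ends the transcript, lies in part under a peak of 4003 bp that does not leave the exon, with a fold enrichment of 3.31. *C11orf58* overlaps *SOX6* on the opposite strand, and 6 of the 68 peaks overlap it.

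*SOX5* (ENSG00000134532, chromosome 12, 23682438 to 24715478, minus strand) is longer still, at 1033041 bp, and all 24 of its peaks lie inside the gene record, but none on an exon of the canonical transcript. Its peak of highest fold enrichment, chr12:23782494-23782644, lies in intron 8, enriched 4.16-fold with a −log10 q of 3.97. At 151 bp it has the least length found in the list, which is also the read-extension length given in the paper's reporting summary. It is shown whole for its fold enrichment, and its sequence (plus strand) contains neither SOX word nor the E-box:

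*SOX5* intron 8 peak, chr12:23782494-23782644: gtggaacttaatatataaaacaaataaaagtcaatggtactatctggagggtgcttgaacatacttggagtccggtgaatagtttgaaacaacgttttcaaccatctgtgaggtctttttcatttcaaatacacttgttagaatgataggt

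The largest run of *SOX5* peaks, 8 in 87.4 kb, has its first centre 65.3 kb before the canonical start and includes chr12:24173011-24174413, enriched 4.12-fold with a −log10 q of 4.23, which is above that of the intron 8 peak. The next by fold enrichment, chr12:24222713-24223376, with 3.74, belongs to the same run. The peak nearest the canonical start, chr12:24103446-24105194, lies 842 bp before it, enriched 3.31-fold. The longest stretch of the gene without a peak, 198.9 kb, lies farther from the start, from 24433126 to 24631986.

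Long genes hold few peaks per Mb in this list. The 323 protein-coding genes of at least 500000 bp had a median of 8.18 peaks per Mb, and 95% of them lay at or below 47.7. *SOX6*, with 77.9, exceeded 98.8% of them, and *SOX5*, with 21.2, exceeded 72.8%. The Poisson intervals of this pair did not overlap.

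*SOX13* (ENSG00000143842, chromosome 1, 204042243 to 204096871) had 5 peaks in the gene and 3 outside it. The strongest, chr1:204081758-204084990, is 3233 bp long, enriched 3.88-fold with a −log10 q of 4.04. It covers 220 bp of exon 2, 112 bp of exon 3 and 87 bp of exon 4, with 418 bp of coding sequence, and lies within 1000 bp of another start of the gene. The canonical start has no peak within 1000 bp. The nearest one, chr1:204034115-204035087, ends 7156 bp before it, with a fold enrichment of 3.74, and is the next strongest of the gene. In intron 1, chr1:204049403-204049827 has 3.02. The other 5 have fold enrichments from 2.67 to 2.94.

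**Figure D3:**
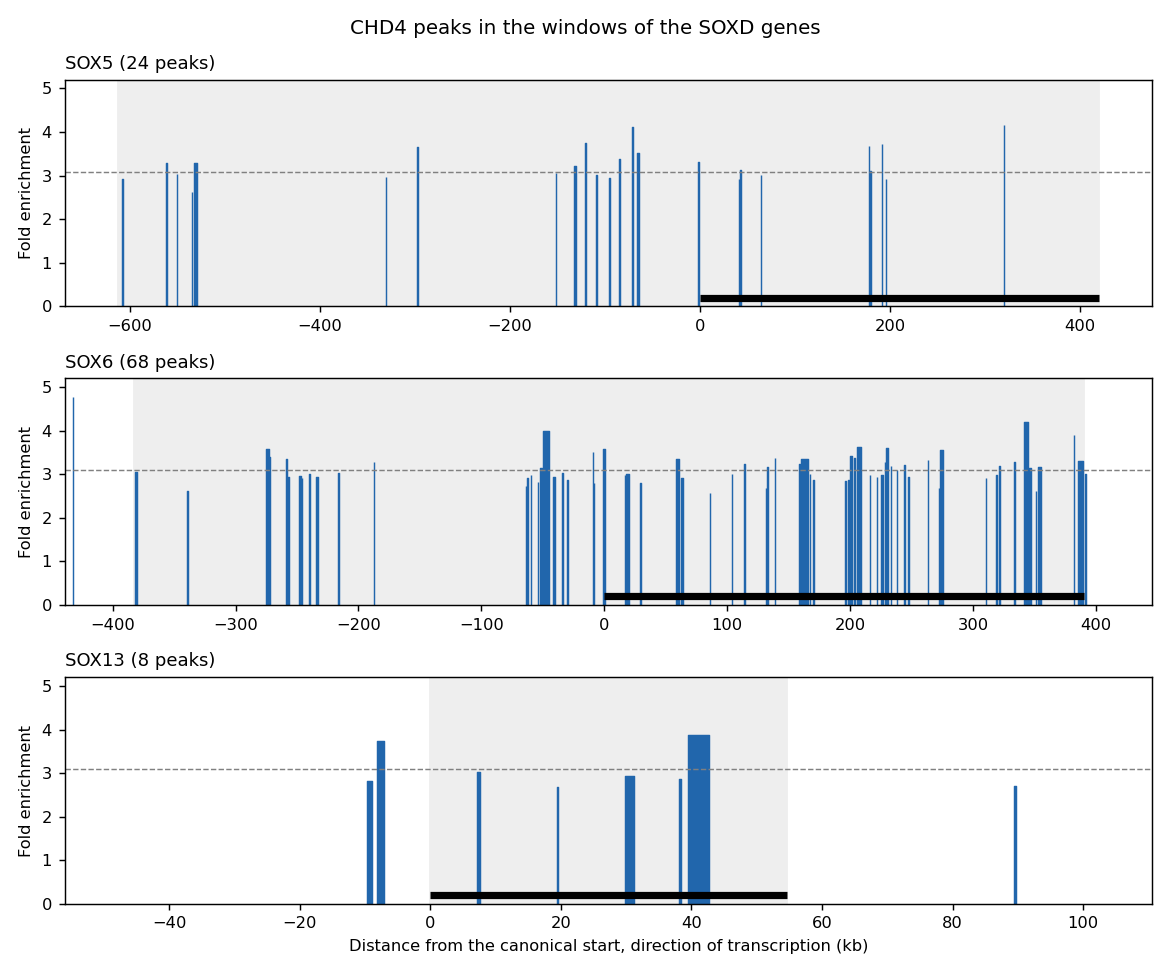
CHD4 peaks of *SOX5*, *SOX6* and *SOX13* by distance from the canonical start (kb), with bar height giving the fold enrichment over background. Grey fields are gene records, black bars canonical transcripts, and the dashed line is the list median of 3.09. The longest stretch without a peak inside the gene is 123.2 kb at *SOX6*, with 68 peaks, and 198.9 kb at *SOX5*, with 24.

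Of the SOXC genes, *SOX4* (ENSG00000124766, chromosome 6, 21593982 to 21598850) has a single exon. A peak of 477 bp lies across its start, chr6:21593661-21594137, with 321 bp before the start and 156 bp of the transcript, enriched 3.09-fold with a −log10 q of 1.83. The last 200 bases (plus strand), before the start, shown as the part of the peak next to the gene, hold 8 CpG and neither SOX word nor E-box:

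Before the *SOX4* start, chr6:21593782-21593981: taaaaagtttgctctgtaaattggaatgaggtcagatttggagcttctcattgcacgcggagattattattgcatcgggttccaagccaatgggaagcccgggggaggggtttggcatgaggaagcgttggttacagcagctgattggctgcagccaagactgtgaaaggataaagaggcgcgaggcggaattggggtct

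The strongest *SOX4* peak, chr6:21589342-21589586, lies 4396 bp before the start, enriched 4.04-fold with a −log10 q of 3.75, in the long non-coding RNA ENSG00000283480. In the same RNA, chr6:21556681-21558579, of 1899 bp, is enriched 3.22-fold and holds 4 SOX words within 250 bp of its centre, the most of any of the 134 peaks. This was seen afterwards, and the share of the list with as many was not computed. The words are rich in A and T, and the peak has 39.3% G and C, beside a list median of 43.8%. After the gene, peaks of 2956 bp (chr6:21633237-21636192, 3.23) and 4407 bp (chr6:21644910-21649316, 3.22) overlap no gene record. The other 4 have fold enrichments from 2.67 to 3.19. Peaks covered 10.97% of the window, more than in 95.2% of protein-coding genes.

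*SOX11* (ENSG00000176887, chromosome 2, 5832516 to 5841517) had no peak in its window, and none within 558.6 kb before the gene or 741.7 kb after it. The stretch without a peak was 1309 kb long. *SOX2* (ENSG00000181449, chromosome 3, 181429713 to 181432224) had 1 peak, chr3:181418295-181418802, which ends 10911 bp before the start. It is enriched 2.68-fold, with a −log10 q of 1.295, and 9.63% of the list has a lower fold enrichment. It lies in the long non-coding RNA *SOX2-OT*, within 1000 bp of a start of one of its transcripts. After the gene the next peak is 650.0 kb away.

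**Figure D4:**
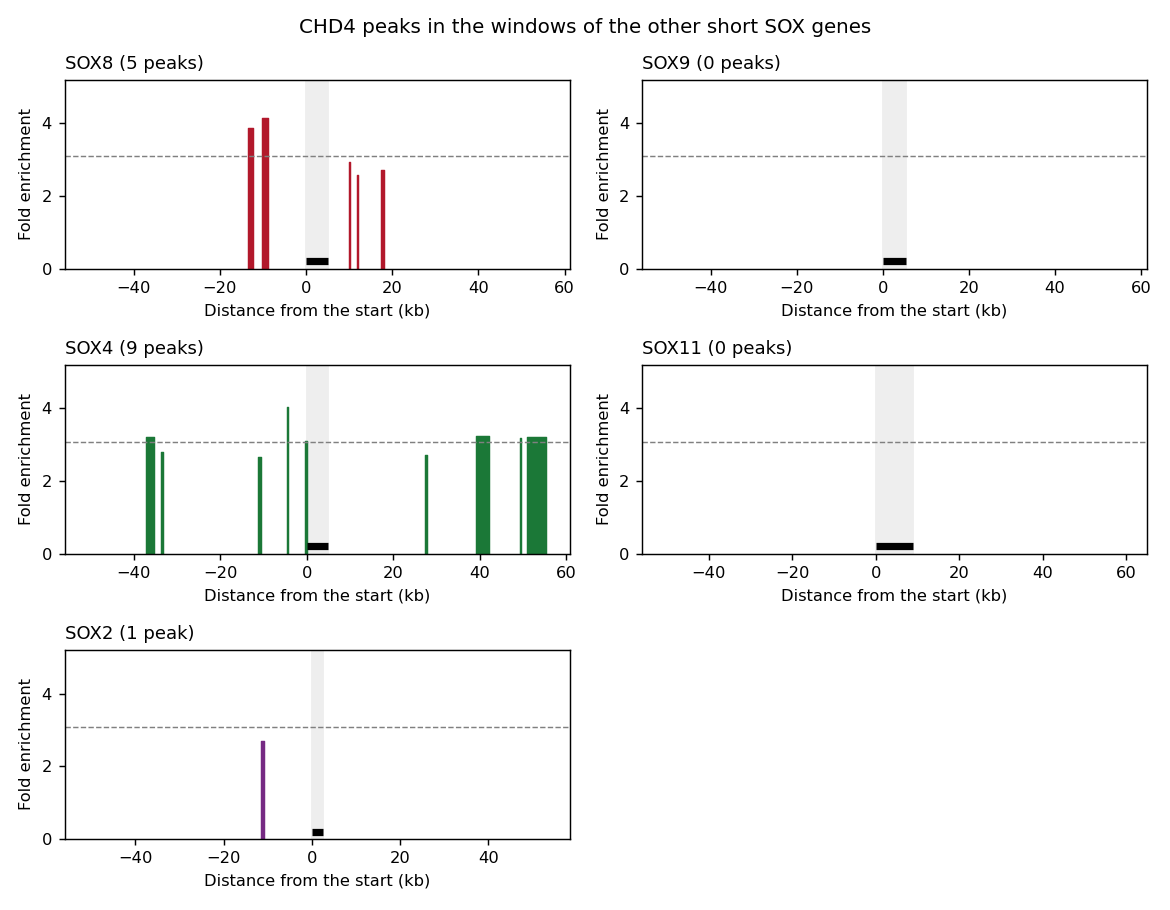
CHD4 peaks in the windows of *SOX8*, *SOX9*, *SOX4*, *SOX11* and *SOX2* by distance from the start (kb), with bar height giving the fold enrichment over background, drawn as for the other genes. *SOX9* and *SOX11* have no bar, and at *SOX4* 1 bar of height 3.09 crosses the start.

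Transcription starts were then considered for the whole set. A total of 5 of the 9 genes had a peak within 1000 bp of any of their annotated starts (*SOX10*, *SOX5*, *SOX6*, *SOX13* and *SOX4*), beside 42.6% of protein-coding genes, and 4 had one within 1000 bp of the canonical start (all of these but *SOX13*), beside 35.2%. Genes with many starts have more chances, and *SOX5* has 20, *SOX6* 17 and *SOX10* and *SOX13* 9 each. Of the 134 peaks, 24 lay within 1000 bp of a start of any gene, or 17.9% (interval 12.34% to 25.27%), beside 23.2% of the list. Seen in the canonical transcripts, 9 peaks touched an exon, 52 lay in introns only, 61 before the start and 12 after the end, and 6 touched coding sequence.

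In strength the SOX peaks lay close to the list. Their median fold enrichment was 3.04, from 2.39 to 4.78, beside 3.09 for the list, and none reached 5. A −log10 q of at least 2 was given for 60 of them, or 44.8% (interval 36.62% to 53.22%), beside 48.5% of the list, and one of at least 5 for 2, at *SOX10* and in the *SOX6* window, beside 2.23%. The lowest −log10 q was 1.087 among the SOX peaks and 1.004 in the list. The paper's reporting summary states a cut that equals a −log10 q of 2, so the list reaches below it. The median length was 627.5 bp, beside 613 bp. The median over each group was 2.998 for SOXE, 3.04 for SOXD and 3.19 for SOXC.

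**Figure D5:**
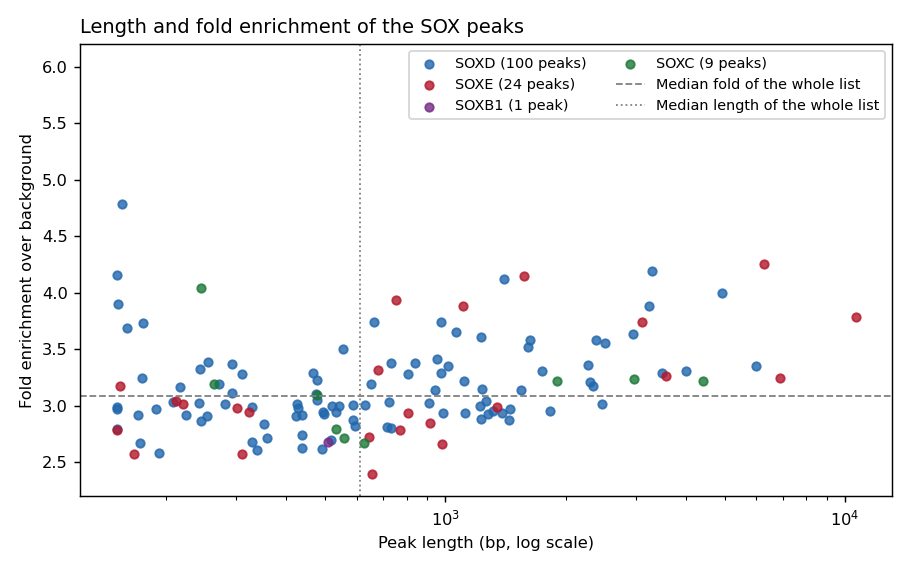
Length (bp, log scale) and fold enrichment over background of the 134 peaks, coloured by SOX group, with the list medians of 3.09 and 613 bp as dashed and dotted lines. The longest peak, of 10618 bp, belongs to the SOXE group, and the highest fold enrichment, 4.78, to a peak of 155 bp in the *SOX6* window.

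Their base composition differed from the list by more. The median share of G and C was 39.6%, beside 43.8%, and it varied by gene, from 37.3% at *SOX6* and 38.0% at *SOX5* to 55.5% at *SOX10* and 57.8% at *SOX8*. A SOX word lay within 250 bp of the centre of 43 peaks, or 32.1% (interval 24.78% to 40.40%), beside 23% of the list. These words are rich in A and T, so the share was also read by composition. Among peaks below the list's median share of G and C, 34 of 90 SOX peaks had a word, or 37.8% (28.46% to 48.10%), beside 29.25%. At or above it, 9 of 44 had one, or 20.5% (11.15% to 34.50%), beside 16.8%. In either class the interval included the value of the list. By gene the count was 23 of 68 at *SOX6*, 9 of 24 at *SOX5*, 5 of 19 at *SOX10*, 3 of 9 at *SOX4*, 3 of 8 at *SOX13* and 0 at *SOX8* and at *SOX2*. An E-box lay near the centre of 5 peaks, or 3.73% (1.60% to 8.44%), beside 7.97% of the list, and 3 of the 5 were at *SOX10*. By composition, 2 of 90 had one below the median share of G and C, or 2.22%, beside 5.15%. At or above it, 3 of 44 had one, or 6.82%, beside 10.78%. The AP-1 word TGACTCA lay near the centre of 11, or 8.21%, beside 10.8%.

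Of the other SOX genes, *SOX1*, *SOX3*, *SOX12*, *SOX14*, *SOX15*, *SOX18*, *SOX21* and *SOX30* were read by the same rule. A peak was in reach of 4 of these 8, beside 82.8% of protein-coding genes and 78% of those of at most 20000 bp. All of these 8 but *SOX30* are of that size. *SOX12*, the third SOXC gene, had 18, the strongest with a fold enrichment of 4.77 at a −log10 q of 6.43, and its density of 172 peaks per Mb was above that of *SOX10*. *SOX15* had 10, the strongest with 5.70, *SOX18* 4 and *SOX30* 1. *SOX1*, *SOX3*, *SOX14* and *SOX21*, of the SOXB groups like *SOX2*, had none. *SOX12* and *SOX15*, 2 of the 8, had a peak within 1000 bp of the canonical start, beside 35.2% of protein-coding genes.

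The width of the window decided many peaks at some genes. *SOX10* had 5 peaks on the gene record alone, 8 with 10000 bp on either side, 19 with 50000 bp and 30 with 100000 bp. In the same order *SOX4* had 1, 2, 9 and 11, and *SOX8* had 0, 3, 5 and 11. The long genes changed less, with 24, 24, 24 and 25 at *SOX5* and 66, 67, 68 and 80 at *SOX6*. The farthest *SOX6* peak counted lay 49025 bp from the gene, with a fold enrichment of 4.78, and the next outside lay 55878 bp away, with 2.88. At *SOX10* these were 44142 bp, with 3.79, and 52586 bp, with 2.99, and at *SOX4* 46060 bp, with 3.22, and 83905 bp, with 3.04.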

How the data were processed

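CHD4 ChIP and input chromatin of the 501Mel line were sequenced, 1 library each, as single reads of 50 bases. Per the paper's methods and the submitters' processing notes, reads were mapped to hg19 with Bowtie (1.0.0 in the notes) and broad peaks were called with MACS2 2.1.1.20160309, with reads extended to a fixed length. The authors' deposited peak list gives a score, the −log10 q times 10 without its decimals, a fold enrichment, which is a ratio, and the −log10 p and −log10 q. The control used in the call is not given in the sources used here. The list holds no counts.

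Peaks were set against GRCh37 and GENCODE release 44 mapped to it, and an overlap of 1 bp counted. A peak lay at a start when it came within 1000 bp of one. The background level was the single level per peak that gives both its fold enrichment, after a pseudocount of 1, and its Poisson p. A broad peak need not have a single level, so this is an approximation. Wilson and exact Poisson intervals at 95% cover counting error only. Overlap, cover, background and motif functions were tested on simulated data. For the background these data had a single level per peak, so peaks of uneven level were not covered. Every peak of a gene with at most 5 was named, otherwise the 3 of highest fold enrichment and any at a start of that gene; a few further peaks were named after their values were seen. The genes and lists were chosen with earlier results of these data known. Alternatives covered thresholds, merging, windows, starts and motif regions. Computation used Python 3.11.15 with scipy 1.17.1, pandas 2.3.3, numpy 2.4.6 and pysam 0.24.0. Samtools 1.23.1 indexed the genome and matplotlib 3.10.9 drew the plots.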

Additional observations from a re-analysis of the deposited data

How the results depend on the processing

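No paired analysis was possible because the ChIP and the input have 1 library each, without a test. Requiring a −log10 q of at least 2 left 60 of the 134 peaks (21.4 per Mb, in place of 47.8), with a median fold enrichment of 3.37 and a SOX word in 43.3%. Requiring at least 5 left 2 peaks (0.713 per Mb) at 2 genes, with a median of 4.52, and 0 at a start of a listed gene, 0% at a start of any gene and 0% with a SOX word. Both are stricter by construction. The share of peaks at a start of any gene, 17.9%, became 37.3% within 5000 bp and 9.70% for protein-coding transcripts only. The share with a SOX word, 32.1%, became 42.5% anywhere in the peak, beside 31.6% of the list read in the same way. For the other settings named here the share of the list was not computed, so a change may be general to the list. Without the *SOX6* window, an alternative added after seeing the data, the density of the others was 34.2 per Mb. The number of genes with a peak in reach, 7, became 8 with 100000 bp on either side (adding *SOX9*, with 1 peak) and 5 with the gene record alone. Merging peaks within 1000 bp left 117 peaks, 14 of them at *SOX10*. With 1 library the strength of single peaks has no replicate check.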

Other observations

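The cover of the *SOX10* window was reached by 12 other protein-coding genes of 20098, among them *TOMM7* on chromosome 7 with 48.7% of its window covered, *MCHR1* on chromosome 22 with 44.4%, *IER3* on chromosome 6 with 36.1%, *QPCT* on chromosome 2 with 32.0% and *SEMA5A* on chromosome 5 with 29.5%, beside 29.05% at *SOX10*. These genes were named after their values were seen. *TOMM7* encodes a subunit of the mitochondrial import machinery and *MCHR1* a receptor for melanin-concentrating hormone. Windows of neighbouring genes overlap, so these are not separate regions in every case.

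By length, the 12 SOX peaks of at least 3000 bp had a median fold enrichment of 3.545 and the 16 of at most 200 bp one of 2.98, beside 3.516 and 3.23 over the peaks of the list in the same length classes. No relation was tested.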
